A study of Mus musculus with 22 samples.

Results

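Duodenal organoids that had received medium from a plasma-treated culture from day 2 were compared with untreated organoids. Cold atmospheric plasma (CAP) is a partly ionised gas near room temperature that loads liquids with reactive oxygen and nitrogen species. In this indirect mode the plasma never touched the organoids that were sequenced, since a jet fed with helium was run on another organoid culture (50 W for 60 s) and only the conditioned medium was passed on to naive organoids. The comparison holds 7 of the 22 RNA-seq libraries of the series, 3 of indirect CAP from day 2 and 4 untreated, chosen by their treatment labels and column names.

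All libraries came from wild type organoids of adult mice, grown from crypts of the duodenum in Matrigel with EGF, Noggin and R-spondin. The mice were outbred CD1 animals aged 2 months, and each organoid line came from its own mouse. Lines 1 (passage 12), 2 (passage 14) and 4 (passage 4) each gave 1 untreated and 1 treated library, and line 3 (passage 4) gave an untreated library alone. These passages are those of the labels, and the methods list a lower one for lines 3 and 4. The methods, which number the lines otherwise, list those of passage 12 and 14 as male and the other two as female. The label of the treated libraries reads 24 hours. According to the methods, the medium was given at day 2 after replating and kept until harvest at day 3, so these organoids were taken at the end of exposure. A second description in the labels carries the words Indirect_controls for the same 3 libraries, and the treatment label was followed here. The labels name the cells as stem cells, although organoids of this kind hold stem cells together with their differentiated progeny, and markers of both were present in each library.

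In the intestinal crypt, Lgr5-positive stem cells divide under Wnt and EGF signals and feed transit-amplifying cells, which then leave the cycle and become enterocytes or secretory cells (Paneth, goblet, enteroendocrine and tuft cells). After injury the epithelium can lose this programme for a time and switch on genes of the fetal gut together with targets of YAP, AP-1 and EGF receptor signalling. Cells under oxidative or amino acid stress phosphorylate the translation factor eIF2, which raises ATF4, a transcription factor that drives amino acid transport, synthesis and folate enzymes and, through Ddit3 and Trib3, stress signalling.

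The deposited value of a gene is its read number, brought to a common total of 20 M reads and rounded up. It is not corrected for gene length, so values of different genes are not on 1 scale. The spacing of the low values put the reads behind the 7 libraries at 20.72 to 26.02 M. With limma, log2(value + 1) was compared between the groups for genes that reached 10 in at least 3 of the 7 libraries. A gene counts as past the threshold, risen or fallen, at an adjusted p under 0.01 with a log2 fold change of at least 1. Fold changes understate the change of genes with low values. Values are given for untreated lines 1, 2, 3 and 4 in that order, against treated lines 1, 2 and 4. Each gene of a list said to have risen or fallen did so in each treated library without overlap between the groups. P-values measure the spread between these organoid lines, and each treated line gave a single library. All 16 markers of epithelial identity that were tested stayed under the threshold, with a summed value of 165167 to 175750 in untreated and 180876 to 203434 in treated libraries. Of 21 markers of fibroblasts, muscle, endothelium, immune cells and nerve, 12 lay under 10 in each of the 7 libraries. The summed value of all 21 was 347 to 426 untreated and 450 to 477 treated. Of the 8 tested, the nerve marker Tubb3 alone passed the threshold (log2 fold change -1.61, adjusted p = 0.00142). Col1a1 and Acta2 stayed at 13 or less in each library. The sum over 12 genes of gastric epithelium, most of it from the trefoil peptide Tff1, was 164 to 3535 in untreated and 870 to 4926 in treated libraries, so the sums overlapped. Of the 8 tested, the mucin Muc6 alone passed the threshold (log2 fold change 2.23, adjusted p = 0.000331) and was higher in each treated library.

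The line labels of 2 untreated libraries are in doubt. Kdm5d, a gene of the Y chromosome, had values of 137, 546, 0 and 0 in the untreated and 695, 183 and 0 in the treated libraries, and indirect CAP from day 1 gave 594, 226 and 0 for lines 1, 2 and 4, so that untreated line 1 sat near line 2 of the treated groups and untreated line 2 near line 1. After removal of group means, treated line 1 correlated at 0.0127 with untreated line 1 and at 0.381 with untreated line 2, and treated line 2 at 0.14 with its own untreated library and 0.566 with that of line 1. The main comparison uses no line labels and is not touched by this. Results that use the line as a block are. Without both of these untreated libraries, 1057 genes remained past the threshold (418 higher and 639 lower).

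A large part of the transcriptome differed between the groups. Past the threshold were 2127 of 17860 genes tested (11.9%), 1108 higher (6.2%) and 1019 lower (5.71%), and 9305 (52.1%) had an unadjusted p under 0.05. In 4048 genes (22.7%) the 3 treated libraries all lay above the 4 untreated ones, and in 4615 (25.8%) all lay below. With 3 against 4 libraries an exact permutation test of 1 gene cannot go under a two-sided p of 0.0571, so calls rest on the fit over all genes. Among the early-passage lines 3 and 4 alone, with 1 treated library (line 4), and among the late-passage lines 1 and 2 alone, 1027 of the higher and 879 of the lower genes differed by at least 1 on the log2 scale in both, which is a description, as the same libraries chose these genes. With the line as a block the count was 1895 (10.6%; 1004 higher, 5.62%, and 891 lower, 4.99%), of which 1652 genes were the same. Leaving out treated line 4 gave 1357 genes and leaving out any other single library gave 1611 to 2185. The balance of higher and lower genes was not stable, as it ranged from 1272 higher of 2185 without untreated line 3 to 529 higher of 1357 without treated line 4.

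**Figure D1:**
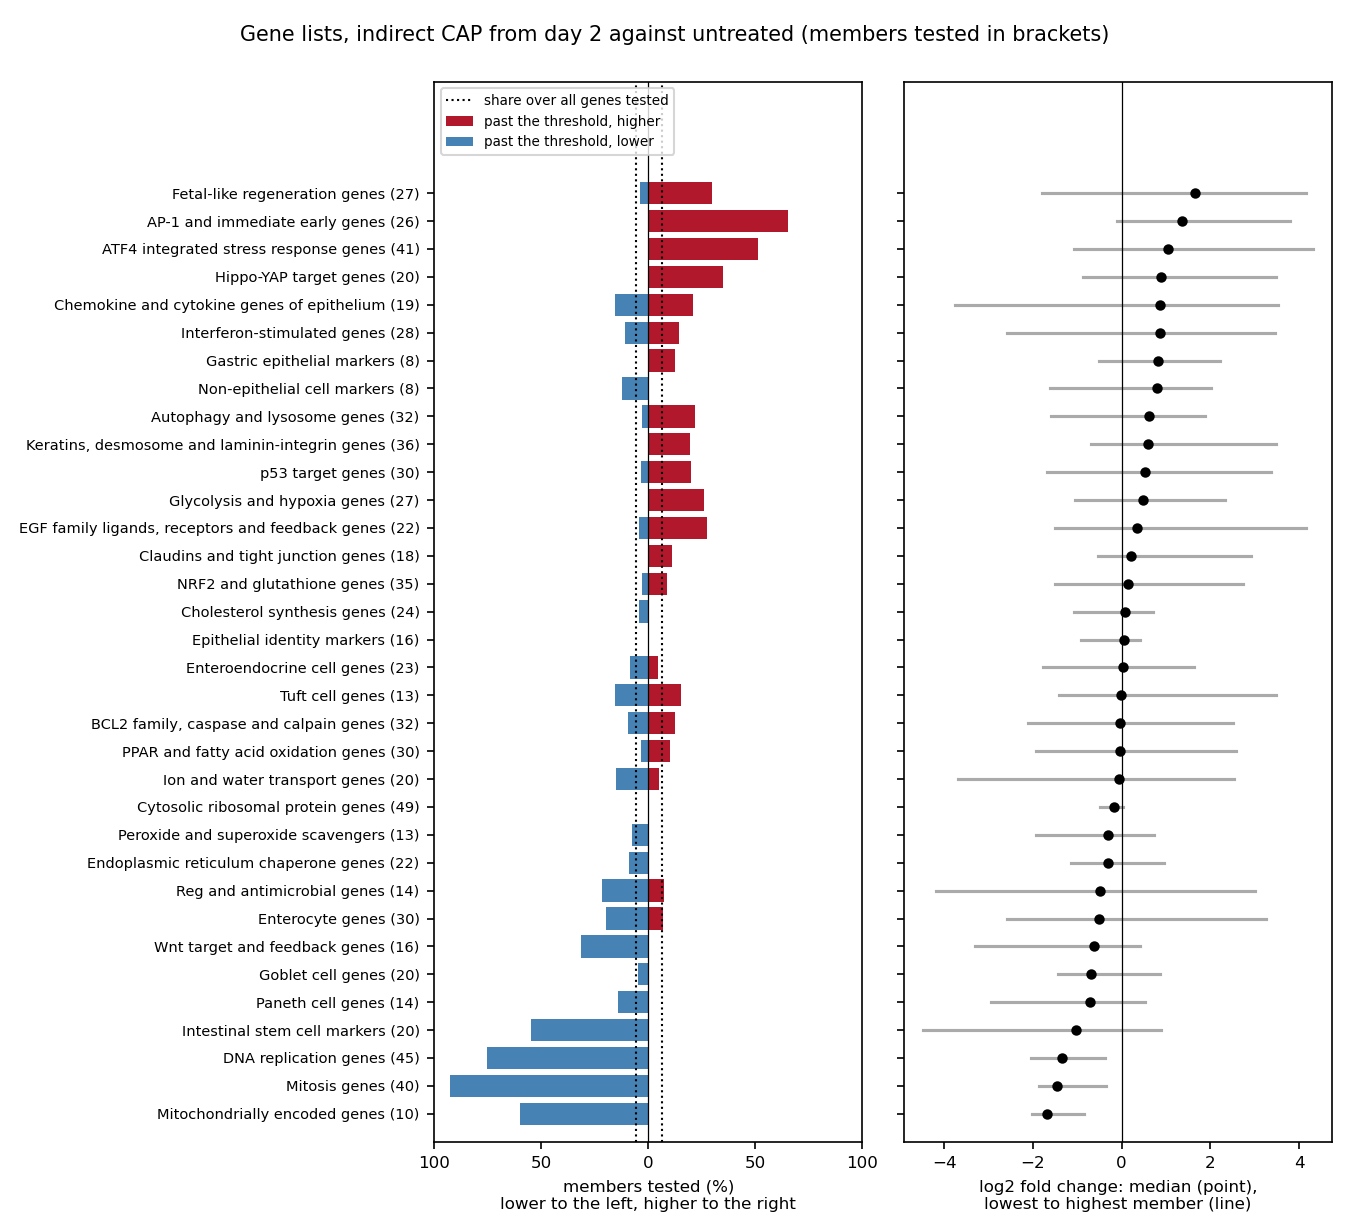
Share of the tested members of each gene list past the threshold (left; lower in blue to the left, higher in red to the right, dotted lines at the shares over all genes tested, 6.2% and 5.71%) and the median, lowest and highest log2 fold change of the members tested (right), for indirect CAP from day 2 (3 libraries) against untreated (4 libraries). Mitochondrially encoded, mitosis and DNA replication genes have the lowest medians, and fetal-like regeneration, AP-1 and ATF4 genes the highest.

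Markers of the stem cell compartment fell, several of them to a small part of the untreated level. Of 20 intestinal stem cell markers tested (21 listed), 11 fell, none rose and 9 did not pass the threshold, with a median log2 fold change of -1.03 beside -0.01 over all genes. Olfm4 (chr14:79984081-80023139 on GRCm38), a secreted glycoprotein that marks crypt base stem cells, had values of 22768, 20867, 25431 and 22333 in untreated and 1255, 956 and 899 in treated libraries. That is a mean of 22849.8 ± 1903 (SD, n = 4) against 1037 ± 191 (SD, n = 3), with no overlap (log2 fold change -4.47, SE 0.12, adjusted p = 3.13e-06), and no gene had a smaller adjusted p. Lgr5 (chr10:115450311-115587780), the R-spondin receptor that defines these cells, went from 2822, 1305, 1816 and 1281 to 131, 188 and 36 (log2 fold change -4.14, SE 0.53, adjusted p = 0.00055). The spread of Lgr5 was wide on both sides, and line 4 was the lowest of the treated libraries.

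Smoc2, a matrix protein of the Lgr5 signature, had 6606, 5841, 5705 and 6510 in untreated and 1039, 1081 and 807 in treated libraries (log2 fold change -2.67, SE 0.11, adjusted p = 2.17e-05). The protocadherin Pcdh8 went from 530, 261, 249 and 273 to 22, 23 and 5 (log2 fold change -4.39, SE 0.50, adjusted p = 0.000341). Both separated the groups fully, as did the BMP co-receptor Rgmb (log2 fold change -1.93), Cdca7 (-1.86) and the adrenergic receptor Adra2a (-1.84). These 7 calls held under each alternative that was run. Ascl2, the Wnt-driven transcription factor of crypt stem cells, fell less, from 729, 386, 416 and 497 to 237, 297 and 209 (log2 fold change at the limit, SE 0.22, adjusted p = 0.0078). Its call was lost in 12 of 15 alternatives, among them those without treated lines 1 or 4 or untreated lines 1, 3 or 4 (log2 fold change -0.81 to -1.14). Calls of Ephb3, Msi1 and Mex3a (log2 fold changes -1.05, -1.81 and -1.05) were lost in 3, 3 and 6 of them, and the block took Msi1 and Mex3a to adjusted p = 0.0115 and 0.0202. Without treated line 4 or untreated line 1 the log2 fold changes of Ephb3 and Mex3a were under 1 in size, and without treated line 1 that of Mex3a was. Not every marker fell: Prom1, a membrane glycoprotein found beyond the stem cell, had 2629, 2229, 2875 and 3106 in untreated and 4333, 4295 and 6539 in treated libraries (log2 fold change 0.88, adjusted p = 0.00391, under the fold limit), and Tnfrsf19 overlapped between the groups. In bulk RNA, fewer stem cells and less RNA per stem cell cannot be told apart.

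Targets of canonical Wnt signalling followed in part. Of 16 tested (22 listed), 5 fell and none rose, with a median of -0.63, and the groups did not overlap for 9 that were lower (25.8% over all genes). Axin2, a negative feedback gene of the pathway, had 5951, 4158, 4349 and 4316 in untreated and 1291, 1317 and 752 in treated libraries (log2 fold change -2.10, SE 0.21, adjusted p = 0.00019). Nkd1, another feedback inhibitor, stood at 39, 23, 83 and 25 against 3, 6 and 1 (log2 fold change -3.31, SE 0.56, adjusted p = 0.0021), so its treated values rest on few reads. The transcription factor Sox4 (6583, 4104, 4573 and 4664 against 1396, 1658 and 1065, log2 fold change -1.86) and the Rac activator Tiam1 (-1.26) were lower in each treated library. Nav2 (-1.88) lost its call when any 1 of the 4 untreated libraries was left out (adjusted p = 0.0127, 0.0137, 0.0147 and 0.0108 without lines 1 to 4).

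**Figure D2:**
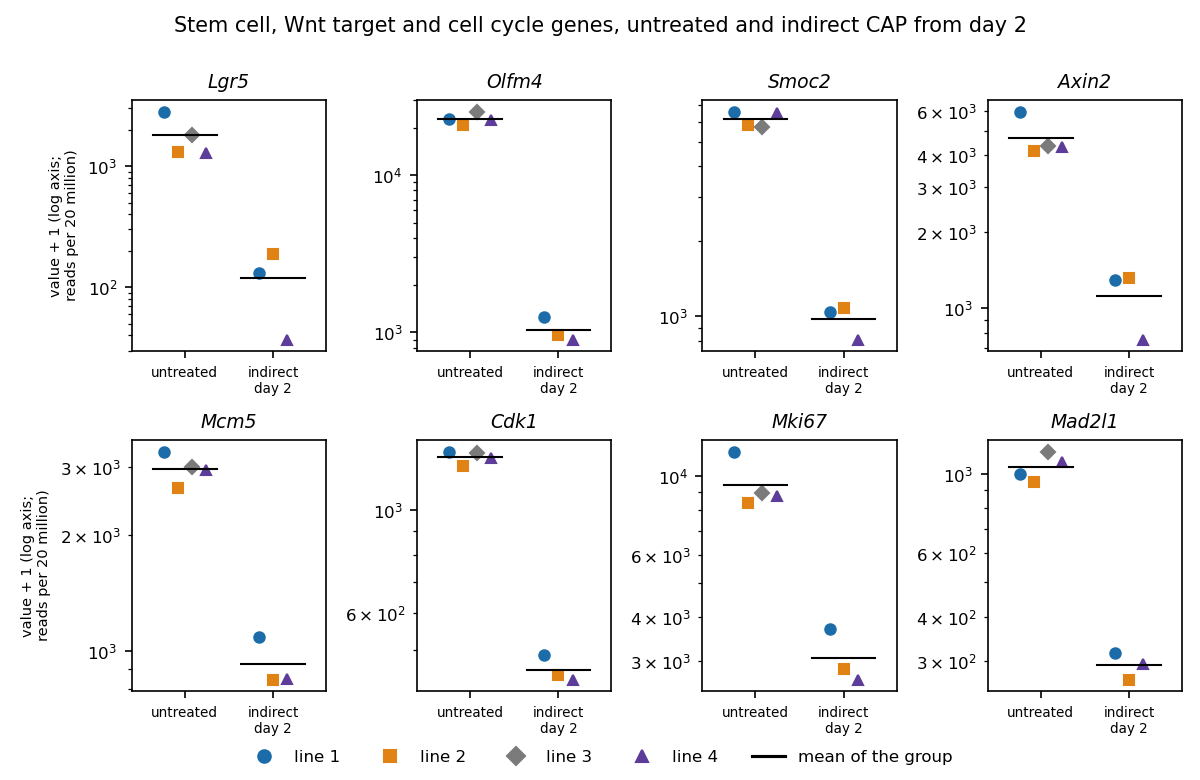
Deposited value plus 1 (reads per 20 M, log axis) of 4 stem cell and Wnt target genes and 4 replication and mitosis genes in each untreated and each treated library, with 1 symbol per organoid line and a bar at the group mean. No treated library reaches an untreated one in any panel, and line 4 is the lowest treated library for Lgr5 (36) and Axin2 (752).

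Genes of the dividing cell fell together. Of 45 DNA replication genes tested, 34 fell and none rose (median log2 fold change -1.35), and of 40 mitosis genes tested, 37 fell and none rose (-1.45). In each of these genes the 3 treated libraries lay below the 4 untreated ones, where 25.8% of all genes did. Among 49 cytosolic ribosomal protein genes none passed the threshold (median -0.17). The median of the mitosis genes was -1.37 among lines 1 and 2 and -1.56 among lines 3 and 4. The call was kept in each alternative by 32 of the 34 replication genes and 35 of the 37 mitosis genes.

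Mcm5, a subunit of the replicative helicase, had values of 3295, 2651, 3003 and 2952 in untreated and 1085, 843 and 847 in treated libraries (log2 fold change -1.69, SE 0.11, adjusted p = 4.55e-05). Dut, which keeps dUTP out of DNA, went from 976, 907, 1069 and 1096 to 289, 269 and 270 (log2 fold change -1.87, SE 0.09, adjusted p = 3.01e-05). Mcm6 (log2 fold change -1.65), the primase subunit Prim1 (-1.29) and the clamp loader subunit Rfc3 (-1.80) fell as well. Pcna, the sliding clamp that also serves DNA repair, went from 2600, 2567, 2741 and 2678 to 1811, 1317 and 1338 (log2 fold change -0.85, adjusted p = 0.00073), and so did not pass the fold limit. Cdk1, the kinase that starts mitosis, had 1330, 1239, 1318 and 1288 against 486, 442 and 431 (log2 fold change -1.51, SE 0.08, adjusted p = 3.01e-05). Mki67, the chromosome surface protein used to stain cycling cells, had 11723, 8402, 8959 and 8756 against 3705, 2848 and 2662 (log2 fold change -1.62, SE 0.15, adjusted p = 0.000129). The spindle checkpoint gene Mad2l1 (log2 fold change -1.83, SE 0.10, adjusted p = 3.35e-05), the checkpoint kinase Ttk (log2 fold change -1.83), the spindle protein Nusap1 (-1.84) and the motor protein Kif11 (-1.66) fell as well. Kif23, a motor of the dividing bridge, stood out with 1532, 1384, 1538 and 1400 in untreated and 1355, 958 and 1148 in treated libraries (log2 fold change -0.36, adjusted p = 0.0376).

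Promoters of the replication and mitosis list members, fallen or not, were read from RefSeq (GRCm38.p6, from 250 bases before to 50 after the start) for 2 letter patterns known from cell cycle control, on both strands. The E2F pattern, TTT followed by 2 bases that are each C or G and by CGC, was found for 15 of 37 replication genes matched (40.5%), where 2.6% of 27025 genes hold it. The CHR pattern (cell cycle genes homology region, TTTGAA) was found for 24 of 34 mitosis genes matched (70.6%), where 20.2% of all genes hold it. A match describes letters and shows no binding. The 3 members of each list with the smallest p that hold the pattern are shown as 100 bases with the pattern, or overlapping copies of it, in capitals (read from the other strand, the E2F pattern starts with GCG and ends with AAA, and the CHR pattern is TTCAAA). The first set is from Mcm5 (chr8:75109310-75109409, plus strand), Rfc3 (chr5:151651165-151651264, minus strand) and Mcm6 (chr1:128359762-128359861, minus strand), and the second from Cdk1 (chr10:69352930-69353029, minus strand), Ttk (chr9:83834639-83834738, plus strand) and Kif11 (chr19:37376317-37376416, plus strand).

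Sequences with the E2F pattern in capitals, 5′ to 3′ on the strand of the gene:
Mcm5: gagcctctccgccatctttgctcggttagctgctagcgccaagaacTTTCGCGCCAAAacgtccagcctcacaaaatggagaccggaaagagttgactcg
Rfc3: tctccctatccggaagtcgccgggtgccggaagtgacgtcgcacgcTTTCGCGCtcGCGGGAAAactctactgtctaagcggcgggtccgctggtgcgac
Mcm6: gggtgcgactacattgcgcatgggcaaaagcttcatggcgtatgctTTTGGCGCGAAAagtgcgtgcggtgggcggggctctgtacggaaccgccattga

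Sequences with the CHR pattern in capitals, 5′ to 3′ on the strand of the gene:
Cdk1: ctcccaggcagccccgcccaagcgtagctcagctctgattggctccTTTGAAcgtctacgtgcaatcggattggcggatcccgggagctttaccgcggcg
Ttk: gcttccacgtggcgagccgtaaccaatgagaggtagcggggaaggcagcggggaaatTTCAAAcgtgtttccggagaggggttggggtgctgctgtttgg
Kif11: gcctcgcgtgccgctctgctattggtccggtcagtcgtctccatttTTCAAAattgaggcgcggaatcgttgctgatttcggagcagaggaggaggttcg

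Differentiated cells gave a mixed picture. Of 30 enterocyte genes tested, 6 fell, 2 rose and 22 did not pass the threshold (median -0.51), where 5.71% of all genes fell and 6.2% rose. With the block 4 fell and 1 rose. Apoa1, an apolipoprotein of absorbing enterocytes, had 12080, 16137, 15876 and 12938 in untreated and 2732, 4640 and 2203 in treated libraries (log2 fold change -2.22, SE 0.24, adjusted p = 0.000237). Apoc3 (log2 fold change -2.59) and the fatty acid binding protein Fabp2 (-1.94) also fell. Fabp2 lost its call without treated line 1 (adjusted p = 0.0106), and both lost it without untreated lines 1 and 2 together (0.0303 for Fabp2 and 0.017 for Apoc3). The peptidases Mme (-1.96) and Anpep (-2.29) were past the threshold in the main fit, but line 2 kept high values (Anpep was 5855, 4160, 7446 and 4159 in untreated and 368, 2097 and 1577 in treated libraries). Their calls were lost in 9 and 11 of 15 alternatives, among them those without any 1 untreated library or without treated line 4, with adjusted p = 0.0702 and 0.0544 without untreated lines 1 and 2 together. In the opposite direction, the membrane mucin Muc3 of the brush border rose from 208, 201, 353 and 349 to 1927, 3362 and 2586 (log2 fold change 3.25, SE 0.26, adjusted p = 8.24e-05), and line 2 was the highest. Alpi, intestinal alkaline phosphatase, had 18593, 32923, 27931 and 28427 against 59754, 39628 and 71256 (log2 fold change 1.07, SE 0.24, adjusted p = 0.00829). Its call was lost in 10 of 15 alternatives, among them the block (adjusted p = 0.0277) and those without treated lines 1 or 4 or any 1 untreated library (up to 0.0315, and 0.0338 without untreated lines 1 and 2 together). For sucrase-isomaltase (Sis) the groups overlapped (32230, 33758, 27677 and 32758 against 24592, 40805 and 17476, log2 fold change -0.28, adjusted p = 0.392). Of the 30 enterocyte genes, 21 had a negative and 9 a positive log2 fold change, and the 2 that rose were near the 6.2% of all genes that did.

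Few genes of the secretory lineages passed the threshold. Of 14 Paneth cell genes tested (15 listed), 2 fell, Itln1 (10963, 9370, 8393 and 11600 against 4088, 5629 and 4604, log2 fold change -1.08) and Mptx2 (-2.93), a lectin and a pentraxin of these cells. Itln1 lost its call without treated line 1, where its log2 fold change was under 1, and in a fit over all 7 groups of the series (adjusted p = 0.082), and both lost it without untreated lines 1 and 2 together. Lysozyme (Lyz1), with 20706, 17237, 15293 and 15122 in untreated and 13497, 15319 and 8599 in treated libraries, overlapped between groups (log2 fold change -0.48, adjusted p = 0.0821). The median of the Paneth cell list was -0.72, with 13 of 14 genes negative. Its 2 falls stand beside 5.71% of all genes, and 6 of its 14 genes were lower without overlap, where 25.8% of all genes were. Of 20 goblet cell genes, the protease Tpsg1 alone passed (log2 fold change -1.44), near the 5.71% of all genes that fell. It lost its call in 7 of 15 alternatives, among them those without treated lines 1 or 4 or untreated lines 1, 2 or 4 (adjusted p up to 0.0186, and 0.0595 without untreated lines 1 and 2 together). The mucin Muc2 ranged widely in both groups (11810, 4266, 4217 and 6967 against 7923, 11636 and 3250, log2 fold change 0.11, adjusted p = 0.872). The median of the goblet cell list was -0.69 all the same, and 9 of its 20 genes were lower without overlap, where 25.8% of all genes were.

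In the enteroendocrine lineage, 2 of 23 genes tested (26 listed) fell and 1 rose (median 0.03), near the shares over all genes (5.71% and 6.2%). With the block 1 fell and none rose, and none of these calls held in each alternative. Neurog3, the factor that commits progenitors to this fate, had 370, 304, 383 and 368 in untreated and 117, 124 and 84 in treated libraries (log2 fold change -1.72, SE 0.16, adjusted p = 0.000149, but 0.0151 in a fit over all 7 groups of the series). Pax4, its target, fell as well (log2 fold change -1.77), but with the block its adjusted p was 0.0102. Tph1, which makes serotonin in mature cells, was higher (76, 61, 128 and 69 against 140, 406 and 278, log2 fold change 1.64). It lost its call in 9 of 15 alternatives, among them those without treated lines 2 or 4 or untreated lines 1, 2 or 4 (adjusted p up to 0.0309, and 0.0735 without untreated lines 1 and 2 together). The granule protein Chga had 438, 294, 568 and 776 against 690, 1272 and 1625 (log2 fold change 1.20, adjusted p = 0.0279), with line 1 of the treated libraries inside the untreated range. Neurog3 and Pax4 were thus lower in each treated library, and Tph1 was higher in each. Of 13 tuft cell genes tested (22 listed), 2 rose and 2 fell. The cyclooxygenase Ptgs1 rose from 23, 44, 27 and 67 to 532, 242 and 570 (log2 fold change 3.47, SE 0.42, adjusted p = 0.000444) and the taste receptor subunit Tas1r3 by 1.43 on the log2 scale, while Gng13 (-1.41) and Cd24a (-1.36), which other cells share, fell, Gng13 without a call when untreated lines 1 and 2 were left out together (adjusted p = 0.0128). Dclk1, the usual tuft cell marker, was too low to be tested (18, 7, 5 and 15 against 1, 0 and 2).

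**Figure D3:**
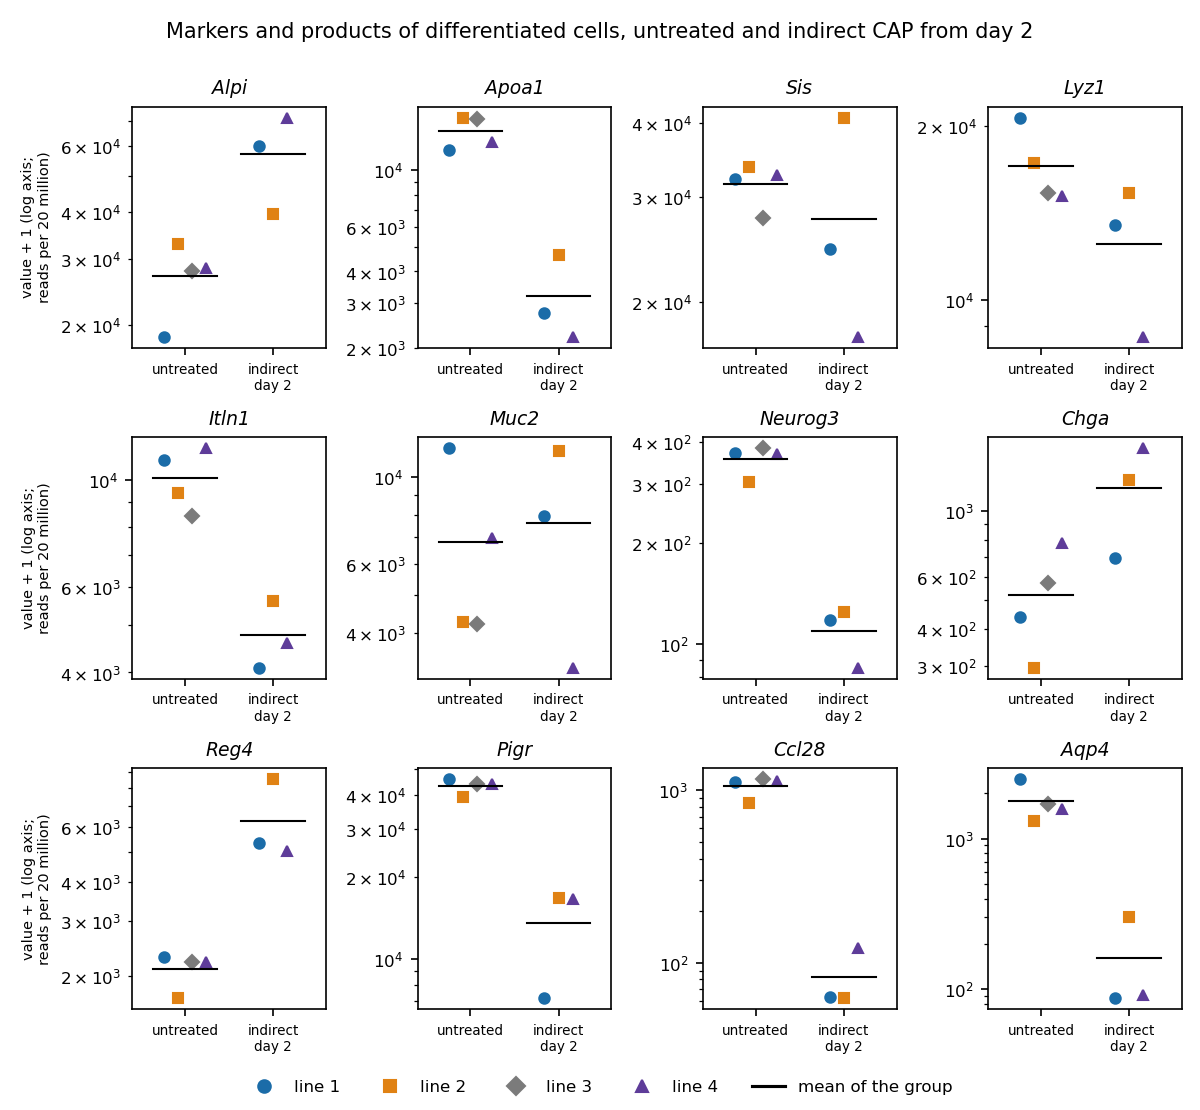
Deposited value plus 1 (reads per 20 M, log axis) of 12 markers and products of differentiated cells in each untreated and treated library, with 1 symbol per organoid line and a bar at the group mean. Apoa1, Itln1, Neurog3, Pigr, Ccl28 and Aqp4 are lower and Alpi and Reg4 higher in each treated library, whereas Sis, Lyz1, Muc2 and Chga overlap.

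Genes of fetal-like regeneration moved the other way. Of 27 tested (29 listed), 8 rose and 1 fell, with a median of 1.65, the highest of the lists. Calls of 3 of the 8 held in each alternative, and the call of the 1 that fell did not. With the line as a block, which leans on the line labels in doubt, 14 rose and none fell. The study picked several of these genes on these samples, so the list is no independent evidence of its direction. Areg (chr5:91139599-91148432), a ligand of the EGF receptor that drives epithelial repair, had 198, 328, 882 and 628 in untreated and 4639, 9171 and 11214 in treated libraries (log2 fold change 4.16, SE 0.51, adjusted p = 0.000448). Epn3, an endocytic adaptor, had 678, 626, 728 and 858 against 3310, 1479 and 2705 (log2 fold change 1.72, a call lost without untreated lines 1 and 2 together, adjusted p = 0.017). The keratin Krt23 had 1174, 1915, 1931 and 2135 against 4539, 3498 and 5075 (log2 fold change 1.31, SE 0.21, adjusted p = 0.00178). The urokinase receptor Plaur (152, 413, 737 and 790 against 2400, 2028 and 3328, log2 fold change 2.53) and the interleukin-1 antagonist Il1rn (91, 148, 364 and 398 against 1044, 1126 and 2224, 2.71) were far lower in untreated line 1 than in untreated lines 3 and 4. Plaur lost its call without any of the 3 treated libraries or untreated line 2 (adjusted p up to 0.0211), and Il1rn without treated lines 1 or 4 or untreated line 2 (up to 0.0159).

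A like spread between untreated lines ran through other members. Ly6a, the surface antigen Sca-1 of the regenerating crypt, had 79, 154, 788 and 241 against 481, 1052 and 807, so untreated line 3 lay inside the treated range (log2 fold change 1.75, adjusted p = 0.0652, and 0.00187 with the block). Clusterin (Clu), which marks revival stem cells, had 998, 2865, 4602 and 5506 against 8934, 2903 and 9374 and overlapped (log2 fold change 1.10, adjusted p = 0.184). Ptgs2, the inducible cyclooxygenase, was higher in each treated library (10, 13, 70 and 49 against 449, 111 and 233) but fell just short (log2 fold change 3.07, adjusted p = 0.01, and 0.0085 with the block). Within passages the median of the list was 2.05 among lines 1 and 2 and 1.32 among lines 3 and 4.

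Of 20 targets of the Hippo-YAP pathway tested (24 listed), 7 rose and none fell (median 0.90), where 6.2% and 5.71% of all genes did. With the block 4 rose. The matricellular protein Cyr61 had 138, 121, 148 and 135 in untreated and 405, 293 and 296 in treated libraries (log2 fold change 1.27, SE 0.15, adjusted p = 0.000392). The surface nucleotidase Nt5e had 16, 27, 46 and 46 against 219, 363 and 582 (log2 fold change 3.49, SE 0.44, adjusted p = 0.000495). These were the members that kept their call in each alternative. Tissue factor (F3, log2 fold change 2.68) lost its call without treated line 4 (adjusted p = 0.0114) or untreated line 2 (0.0108). Ctgf and Ankrd1, the best known targets, did not pass: Ctgf had 50, 183, 190 and 30 against 102, 44 and 22 (log2 fold change -0.86, adjusted p = 0.373) and Ankrd1 stayed at 35 or less in each library.

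Some ligands and feedback genes of the EGF receptor rose. Among 22 genes tested (25 listed), 6 rose, 1 fell and 15 did not pass (median 0.35). Each of the calls held in each alternative. Betacellulin (Btc) had 222, 299, 463 and 406 in untreated and 1458, 2270 and 2894 in treated libraries (log2 fold change 2.66, SE 0.29, adjusted p = 0.000284). Heparin-binding EGF-like growth factor (Hbegf) had 141, 194, 253 and 195 against 516, 574 and 612 (log2 fold change 1.56, SE 0.18, adjusted p = 0.000393). Dusp4, Dusp5 and Dusp6, the phosphatases that switch ERK off, rose by 1.61, 1.96 and 1.64 on the log2 scale. Lrig1, an EGF receptor inhibitor that is also a stem cell marker, fell from 6393, 5487, 5342 and 5298 to 2473, 1917 and 1604 (log2 fold change -1.51, SE 0.14, adjusted p = 0.000145). The receptor itself, Egfr, had 1522, 1297, 1629 and 1558 against 1798, 1206 and 1945, with overlap.

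AP-1 subunits and immediate early genes, which respond to growth factor and stress kinases within minutes, were high at the end of the exposure. Of 26 tested (28 listed), 17 rose and none fell (median 1.35), and 22 were higher without overlap, where 22.7% of all genes were. Fos had 157, 327, 291 and 218 in untreated and 1706, 1505 and 1608 in treated libraries (log2 fold change 2.74, SE 0.23, adjusted p = 9.13e-05). Dusp1, a phosphatase that dampens p38 and JNK, went from 92, 113, 145 and 163 to 911, 1901 and 1452 (log2 fold change 3.43, SE 0.27, adjusted p = 7.98e-05). Atf3 had 101, 83, 106 and 93 against 566, 1284 and 675 (log2 fold change 3.04, SE 0.26, adjusted p = 0.0001), with line 2 the highest. Jdp2, a repressor of the AP-1 family, had 6, 16, 17 and 25 against 216, 221 and 197 (log2 fold change 3.79, SE 0.40, adjusted p = 0.000244). Fosl1 (log2 fold change 2.36), Junb (1.27), Egr1 (1.55) and the mRNA-decay factor Zfp36 (1.40) rose in each treated library. Jun itself, from 1267, 1025, 1305 and 999 to 1910, 2731 and 1958, stayed under the fold limit (log2 fold change 0.93, adjusted p = 0.00193), and Fosb missed the p limit (adjusted p = 0.0143). Calls of 11 of the 17 held in each alternative, and without untreated lines 1 and 2 together 11 genes were past the threshold.

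The integrated stress response gave the most risen genes of the lists by number, while a larger share rose among AP-1 and immediate early genes (17 of 26). Of 41 genes tested (42 listed), 21 rose and none fell (median 1.05), 38 were higher without overlap (22.7% over all genes), and 19 of the 21 calls held in each alternative. Nupr1 (chr7:126623249-126630861), a stress-induced chromatin protein, had 204, 194, 219 and 539 in untreated and 4548, 5091 and 6027 in treated libraries (log2 fold change 4.30, SE 0.33, adjusted p = 7.2e-05), although untreated line 4 stood above the other untreated libraries. Trib3, a pseudokinase induced by ATF4 and Ddit3, had 278, 225, 190 and 235 against 2041, 3003 and 2265 (log2 fold change 3.38, SE 0.16, adjusted p = 3.01e-05). Ddit3 (CHOP), the pro-apoptotic factor of the pathway, had 208, 220, 246 and 206 against 980, 1255 and 1245 (log2 fold change 2.39, SE 0.12, adjusted p = 3.01e-05). All 3 separated the groups by a wide margin. Chac1, which breaks down glutathione, went from 157, 173, 132 and 180 to 1202, 1714 and 837 (log2 fold change 2.90, SE 0.23, adjusted p = 7.49e-05). Atf4 transcripts rose from 3660, 3356, 3260 and 3408 to 6513, 11661 and 8100 (log2 fold change 1.31), and Atf5 by 2.62 on the same scale. Gdf15, a secreted stress hormone, had 310, 504, 372 and 570 against 3582, 3818 and 6168 (log2 fold change 3.36, SE 0.25, adjusted p = 6.18e-05).

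Effectors of the pathway covered its main branches. In amino acid transport, the cystine carrier Slc7a11 had 779, 784, 1206 and 895 against 4275, 8310 and 6083 (log2 fold change 2.73, SE 0.23, adjusted p = 9.49e-05), the glycine carrier Slc6a9 rose by 2.38 and Slc3a2, the shared heavy chain, by 1.05 on the log2 scale, the last losing its call without treated line 2, where the fold was under the limit. Among mitochondrial folate enzymes, Aldh1l2 had 99, 94, 70 and 151 against 1976, 2173 and 1580 (log2 fold change 4.23, SE 0.24, adjusted p = 3.35e-05) and Mthfd2 rose by 1.32. The transaminase Gpt2 rose by 1.93. Ppp1r15a, which takes the phosphate off eIF2 again, had 199, 188, 190 and 223 against 706, 1101 and 938 (log2 fold change 2.17, SE 0.15, adjusted p = 5.24e-05). Asns and Psat1, enzymes of asparagine and serine synthesis, were higher without overlap but under the fold limit (log2 fold changes 0.89 and 0.86). Chaperones of the endoplasmic reticulum did not follow. Of 22 tested, none rose and 2 fell (median -0.31), Hspa5 (BiP) had 10351, 9596, 11480 and 12001 against 9438, 10868 and 10202 (log2 fold change -0.09, adjusted p = 0.482), and the isomerase Pdia6 went from 4916, 4841, 6062 and 6148 to 2290, 2291 and 2904 (log2 fold change -1.14, SE 0.13, adjusted p = 0.000294).

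The ATF4 composite element, TGATGCAA, was searched in the same promoter windows on both strands, a pattern chosen after the values were seen. It was found for 10 of 37 genes of the list that were matched (27.0%), where 1.0% of all genes hold it. The 3 examples are members with the smallest p that hold it, with the element or its reverse (TTGCATCA) in capitals: Nupr1 (chr7:126625527-126625626, minus strand), Chac1 (chr2:119351003-119351102, plus strand) and Slc7a11 (chr3:50443626-50443725, minus strand), which holds 2 copies.

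Sequences with the ATF4 element in capitals, 5′ to 3′ on the strand of the gene:
Nupr1: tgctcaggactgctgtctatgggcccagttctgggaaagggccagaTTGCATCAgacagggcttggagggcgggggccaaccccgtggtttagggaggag
Chac1: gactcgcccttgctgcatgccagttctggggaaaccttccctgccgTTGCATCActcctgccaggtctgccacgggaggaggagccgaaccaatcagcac
Slc7a11: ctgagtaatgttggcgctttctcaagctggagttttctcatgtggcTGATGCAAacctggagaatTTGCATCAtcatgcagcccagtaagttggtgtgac

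**Figure D4:**
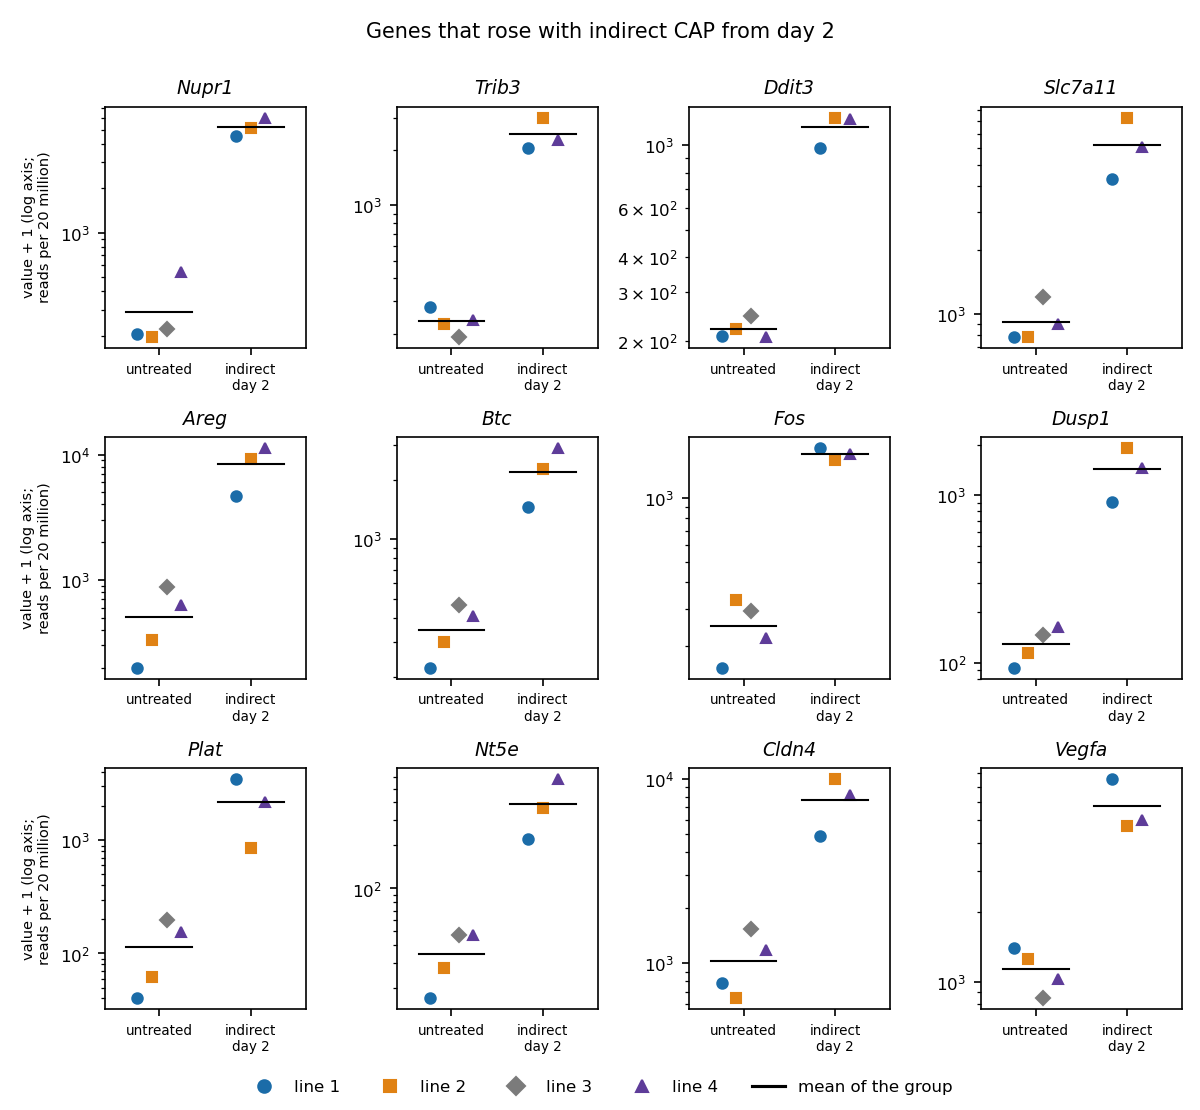
Deposited value plus 1 (reads per 20 M, log axis) of 12 genes that rose, in each untreated and treated library, with 1 symbol per organoid line and a bar at the group mean. Each treated library lies above each untreated one in every panel. Untreated line 4 stands apart for Nupr1 (539), and the treated libraries of Plat range widely (850 to 3490).

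Genes that handle reactive species directly changed less. Of 35 NRF2 and glutathione genes tested (36 listed), 3 rose and 1 fell (median 0.14), beside shares of 6.2% and 5.71% over all genes. Heme oxygenase 1 (Hmox1) had 75, 66, 155 and 131 in untreated and 501, 477 and 703 in treated libraries (log2 fold change 2.45, SE 0.31, adjusted p = 0.000533). Malic enzyme Me1 had 2221, 2166, 1956 and 1948 against 12243, 5368 and 5133 (log2 fold change 1.75), with line 1 far above the others and a call lost without untreated lines 1 and 2 together (adjusted p = 0.0161). The other riser was Slc7a11, which ATF4 and NRF2 share. Nqo1, Gclm and Txnrd1, standard NRF2 targets, overlapped between groups (log2 fold changes 0.23, -0.28 and 0.12). The microsomal glutathione transferase Mgst1 fell from 5208, 6802, 5886 and 4932 to 1925, 2515 and 1622 (log2 fold change -1.51, SE 0.16, adjusted p = 0.000252). Of 13 peroxide and superoxide scavengers tested (16 listed), none rose and 1 fell, the peroxiredoxin Prdx4 of the endoplasmic reticulum (469, 411, 526 and 605 against 96, 114 and 199, log2 fold change -1.93). Sod2 and Prdx2 were lower in each treated library but under the fold limit (log2 fold changes -0.50 and -0.64).

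Among 30 targets of p53, 6 rose and 1 fell (median 0.53), where 6.2% and 5.71% of all genes did. Cdkn1a (p21), the inhibitor of cyclin-dependent kinases, had 2142, 1868, 1986 and 1744 in untreated and 4925, 7447 and 5295 in treated libraries (log2 fold change 1.59, SE 0.14, adjusted p = 0.000124). The kinase Plk3 had 207, 224, 272 and 240 against 1197, 1613 and 1281 (log2 fold change 2.52, SE 0.14, adjusted p = 3.12e-05). Plk2 (1.83) rose as well, Zmat3 (1.11) lost its call without treated line 1, and Mdm2, the main feedback gene of p53, was higher in each treated library under the fold limit (0.79). Gls2, a mitochondrial glutaminase, fell from 252, 272, 184 and 233 to 81, 66 and 69 (log2 fold change -1.69, SE 0.17, adjusted p = 0.000183). Gdf15 was counted in the ATF4 list as well, and Pmaip1 among the cell death genes.

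In the list of cell death genes (BCL2 family, caspases and calpains), 4 of 32 tested rose and 3 fell (34 listed). Over all genes 6.2% rose and 5.71% fell, and the median of the list was -0.03. The netrin receptor Unc5b, which can trigger death when its ligand is absent, had 522, 394, 543 and 543 in untreated and 2312, 3327 and 2896 in treated libraries (log2 fold change 2.50, SE 0.15, adjusted p = 4.03e-05). Gasdermin D (Gsdmd), the pore protein of pyroptosis, had 1544, 1856, 2080 and 1997 against 4389, 4588 and 5400 (log2 fold change 1.36, SE 0.12, adjusted p = 0.00011). The inflammasome adaptor Pycard, by contrast, fell from 3404, 3575, 3652 and 3188 to 743, 1046 and 655 (log2 fold change -2.11, SE 0.15, adjusted p = 5.16e-05). So did Casp6 (log2 fold change -1.70) and the survival factor Bcl2 (577, 407, 447 and 459 against 155, 183 and 163, -1.49). Pmaip1 (Noxa), a BH3-only protein, was past the threshold at 1.06 but under the fold limit without treated line 4 or untreated line 1, and Bbc3 (Puma) overlapped between groups (adjusted p = 0.0745).

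Some genes of metabolism rose, where 6.2% of all genes did. Of 27 glycolysis and hypoxia genes tested, 7 rose and none fell (median 0.47), and 4 rose and 1 fell with the block. Calls of 3 of the 7 held in each alternative, those of Hk1, Slc2a1 and Vegfa, while Slc16a3 and Pfkfb3 lost theirs in 13 and 9 of 15. Hexokinase 1 (Hk1) had 773, 494, 563 and 709 against 2177, 2867 and 3705 (log2 fold change 2.19, SE 0.21, adjusted p = 0.000145). The glucose carrier Slc2a1 had 1996, 2094, 1729 and 2226 against 4144, 5577 and 6039 (log2 fold change 1.37, SE 0.14, adjusted p = 0.000197). The angiogenic factor Vegfa had 1394, 1257, 844 and 1024 against 7548, 4700 and 5010 (log2 fold change 2.34, SE 0.21, adjusted p = 0.000118). Most other glycolytic genes did not pass. Among 32 autophagy and lysosome genes, 7 rose and 1 fell: the cargo receptor Sqstm1 (p62) had 3514, 3841, 3893 and 4261 against 8910, 14130 and 13418 (log2 fold change 1.62, SE 0.16, adjusted p = 0.000162), the sialidase Neu1 rose by 1.55 on the log2 scale, and Wipi1 fell by 1.58 on that scale. Of 30 PPAR and fatty acid oxidation genes tested (32 listed), 3 rose and 1 fell, close to the shares over all genes (median -0.04), and the lipid droplet protein Cidec was among the risers (92, 105, 136 and 107 against 411, 905 and 751, log2 fold change 2.57). Pparg was at 667, 792, 752 and 909 against 1463, 1253 and 2286 (log2 fold change 1.06), and it no longer passed without treated line 4 or untreated line 1 (log2 fold change under 1) or untreated line 2 (adjusted p = 0.0109).

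Transcripts of the mitochondrial genome were lower. All 10 that were tested (13 listed) were lower without overlap, 6 of them past the threshold, where 25.8% and 5.71% of all genes were (median -1.67). mt-Nd5, a subunit of complex I, had 25874, 26260, 23266 and 22970 in untreated and 8488, 6474 and 7108 in treated libraries (log2 fold change -1.75, SE 0.11, adjusted p = 4.03e-05). On the other strand, mt-Nd6 had 4093, 4418, 3896 and 3935 against 1310, 835 and 944 (log2 fold change -2.01, SE 0.14, adjusted p = 5.24e-05), while mt-Cytb had 17106, 17117, 15098 and 14200 against 6520, 4892 and 5843 (log2 fold change -1.47, SE 0.12, adjusted p = 7.98e-05). mt-Co1 was lower under the fold limit (53912, 61578, 46422 and 43865 against 29828, 24217 and 26665, log2 fold change -0.93). The genome as a whole took 1.24 to 1.54% of the values of the untreated and 0.72 to 0.83% of the treated libraries. This share is also used as a sign of RNA or cell quality, and the part of that in the result was not tested.

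Genes of barrier and defence split. The tight junction protein Cldn4 rose from 780, 643, 1523 and 1173 to 4922, 9977 and 8196 (log2 fold change 2.92, SE 0.33, adjusted p = 0.000309), while 16 of the 18 claudin and junction genes tested (20 listed) did not pass. Among 36 keratin, desmosome, laminin and integrin genes tested (37 listed), 7 rose and none fell (median 0.59): the laminin chain Lama5 had 1469, 1522, 1950 and 1315 against 6540, 5375 and 6061 (log2 fold change 1.95, SE 0.13, adjusted p = 4.97e-05), and Dsg3 and Col17a1, better known from skin, reached values of 75, 80 and 114 and 90, 105 and 164 from 2, 5, 20 and 10 and 13, 15, 39 and 13. Dsg3 lost its call without treated line 4 (adjusted p = 0.0107), and Col17a1 without untreated lines 1 and 2 together (0.0198). Ccl28, a chemokine that draws IgA plasma cells, fell from 1109, 844, 1156 and 1127 to 62, 61 and 121 (log2 fold change -3.75, SE 0.24, adjusted p = 4.24e-05), and the receptor that carries IgA to the lumen, Pigr, from 45836, 39258, 43908 and 43901 to 7151, 16783 and 16587 (log2 fold change -1.78, adjusted p = 0.00146, and 0.0175 without untreated lines 1 and 2 together). Line 1 had the lowest Pigr value. The secreted phospholipase Pla2g5 went from 201, 142, 178 and 114 to 6, 12 and 6 (log2 fold change -4.18, SE 0.30, adjusted p = 5.77e-05). Cxcl16 rose from 304, 682, 1040 and 1009 to 3918, 3184 and 5927 (log2 fold change 2.62, SE 0.42, adjusted p = 0.00164). The lectin Reg4 rose from 2292, 1688, 2215 and 2208 to 5320, 8561 and 5008 (log2 fold change 1.55, SE 0.19, adjusted p = 0.000481). The water channel Aqp4 fell from 2484, 1309, 1704 and 1577 to 86, 301 and 91 (log2 fold change -3.68, SE 0.42, adjusted p = 0.000349) and the potassium channel subunit Kcne3 by 1.21 on the log2 scale.

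Interferon-stimulated genes, which report RNA and DNA sensing, had calls in both directions. Of 28 tested (35 listed), 4 rose and 3 fell (median 0.86), where 6.2% and 5.71% of all genes did. A positive log2 fold change was found in 23 of the 28, and 12 were higher without overlap (22.7% over all genes). Calls of 1 of the 4 and 2 of the 3 held in each alternative. Oasl1 rose from 176, 156, 195 and 262 to 1206, 2866 and 2843 (log2 fold change 3.46, SE 0.31, adjusted p = 0.000122). The other risers were low and unstable, as Usp18 stayed at 28 or less, Oasl2 at 64 or less, and the calls of Oasl2, Usp18 and Ddx60 were lost in 7, 7 and 9 alternatives, among them those without untreated lines 1 or 2, and without treated line 4 for Oasl2 and Ddx60 (adjusted p = 0.0482, 0.0484 and 0.0583 without untreated lines 1 and 2 together). Ifitm3, a membrane protein that blocks virus entry and is high in crypts, fell from 820, 675, 804 and 711 to 120, 182 and 86 (log2 fold change -2.59, SE 0.23, adjusted p = 0.000106). Ifitm2 fell from 1756, 1291, 1434 and 1243 to 450, 558 and 377 (log2 fold change -1.64, SE 0.16, adjusted p = 0.00017). Cxcl10 rose in the main fit (4, 1, 6 and 10 against 15, 129 and 105). Its call was lost in 10 of 14 alternatives, among them those without treated lines 2 or 4 or any 1 untreated library (adjusted p up to 0.0358, and 0.0658 without untreated lines 1 and 2 together), and line 1 stayed near the untreated level.

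The largest rises were ranked by fold change among genes past the threshold with no overlap and a mean of at least 100. Deposited symbols that start with Gm and a digit or end in Rik were left out. Fam129a (the stress protein Niban) led them, with 88, 37, 76 and 42 in untreated and 1327, 2804 and 1664 in treated libraries (log2 fold change 4.99, SE 0.36, adjusted p = 5.51e-05). Plat, tissue plasminogen activator, had 39, 61, 197 and 154 against 3490, 850 and 2194 (log2 fold change 4.32, SE 0.64, adjusted p = 0.00112). AC138214.1 and AC153517.1, with the current symbols Gm47791, a protein-coding gene, and Gm19972, had 4, 6, 3 and 7 and 6, 5, 16 and 7 in untreated and 171, 142 and 194 and 125, 309 and 264 in treated libraries. Grb10, an adaptor of insulin receptor signalling (8, 7, 10 and 12 against 73, 283 and 200), the pentraxin Nptx2 (21, 19, 41 and 51 against 272, 486 and 533), the Ras inhibitor Rasal1 (12, 11, 14 and 51 against 211, 170 and 407) and the peptide hormone Adm2 (52, 22, 17 and 35 against 267, 628 and 296) followed with log2 fold changes of 4.00, 3.73, 3.72 and 3.63. Rasal1 lost its call without untreated lines 1 and 2 together (adjusted p = 0.0135). Nupr1, Aldh1l2, Areg and Jdp2 complete the 12. Most rose from untreated values under 100, where the fold depends on the pseudocount.

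Beside Olfm4, Pcdh8, Pla2g5 and Lgr5, the largest falls included genes whose treated values were all 28 or less. Tnfsf10 (TRAIL), a death ligand, had 561, 220, 325 and 276 against 12, 19 and 11 (log2 fold change -4.48, SE 0.33, adjusted p = 5.96e-05). The LIM protein Lmcd1 (293, 232, 144 and 206 against 18, 8 and 2) and the matrix protein Prelp (185, 129, 125 and 70 against 10, 7 and 2) fell by 4.73 and 4.24 on the log2 scale. Untreated lines differed widely for Rims4, a gene of vesicle release (227, 36, 87 and 138 against 0, 6 and 2), whose call the block took away (adjusted p = 0.0114). Slc14a1, a urea carrier (532, 391, 349 and 122 against 19, 28 and 1), lost its call without untreated line 2 (adjusted p = 0.0116) or lines 1 and 2 together (0.0388). Golga7b and the inositol carrier Slc5a11 fell as well, with log2 fold changes of -4.00 and -3.94.

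Indirect CAP from day 2 was then set against indirect CAP from day 1. In the latter, conditioned medium was given a day earlier and replaced by fresh medium for the last day. By the study's account, the conditioned medium of the earlier start was freshly made, while that of the later start was applied a day after plasma treatment. The age at exposure, the time since exposure and the age of the medium therefore cannot be told apart (the labels give 0.5 hours for the day 1 libraries). Only 2 of 17987 genes tested (0.0111%) passed, both higher from day 2, and 3906 (21.7%) had an unadjusted p under 0.05. Nupr1 had 630, 747 and 944 from day 1 and 4548, 5091 and 6027 from day 2 in lines 1, 2 and 4 (log2 difference 2.76, SE 0.17, adjusted p = 0.00669). AC138214.1 had 13, 9 and 10 against 171, 142 and 194 (log2 difference 3.87, SE 0.22, adjusted p = 0.00669). Leaving out any 1 of the 6 libraries took the count to 0. Here the same line recurs on both sides, and paired libraries deviated together (correlation 0.514, 0.631 and 0.706 for lines 1, 2 and 4, against -0.552 to -0.0661 between lines). With the line as a block 623 genes (3.46%) were past the threshold, 207 higher (1.15%) and 416 lower (2.31%) from day 2. This block does not involve the untreated libraries.

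With that block, 27 of the 40 mitosis genes and 10 of the 45 replication genes tested were lower from day 2 than from day 1, and none was higher. Mki67 had 8894, 7454 and 6207 from day 1 and 3705, 2848 and 2662 from day 2 (log2 difference -1.29, adjusted p = 0.0237, and 1.73e-05 with the block). Ttk had 355, 344 and 320 against 146, 129 and 135 (log2 difference -1.31, adjusted p = 0.0193, and 7.62e-05 with the block). Of the stem cell markers 4 were lower as well, among them Olfm4 (8373, 6311 and 3046 against 1255, 956 and 899, log2 difference -2.41, adjusted p = 0.0266, and 2.56e-05 with the block) and Lgr5 (566, 620 and 186 against 131, 188 and 36, log2 difference -2.05, adjusted p = 0.149, and 2.67e-05 with the block). In each line, the library with the day 2 start had the lower value for these genes. Of the mitochondrial genes, 5 were lower (mt-Nd5 had 25523, 20772 and 16820 against 8488, 6474 and 7108, log2 difference -1.50, adjusted p = 0.0193, and 2.26e-05 with the block), and of the enterocyte genes 13 were lower and 1 higher, with Apoa1 at 8654, 12697 and 9109 against 2732, 4640 and 2203 (log2 difference -1.72, adjusted p = 0.0327, and 2.16e-05 with the block). Genes higher from day 2 included Dusp1 (251, 232 and 309 against 911, 1901 and 1452, log2 difference 2.37, adjusted p = 0.0193, and 3.78e-05 with the block), Cldn4 (1987, 2439 and 3101 against 4922, 9977 and 8196, log2 difference 1.58, adjusted p = 0.0357, and 4.43e-05 with the block) and Reg4 (1247, 3610 and 2003 against 5320, 8561 and 5008, log2 difference 1.55, adjusted p = 0.0813, and 8.68e-05 with the block). Of the ATF4 genes, Nupr1, Atf3, Ppp1r15a and Gdf15 were higher, while Slc7a11 (4325, 4202 and 5006 against 4275, 8310 and 6083) and Trib3 (1306, 2094 and 922 against 2041, 3003 and 2265) did not pass. Ctgf, which did not pass the test against untreated, was lower from day 2 in each line (625, 284 and 212 against 102, 44 and 22, log2 difference -2.83, adjusted p = 0.0561, and 1.73e-05 with the block).

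**Figure D5:**
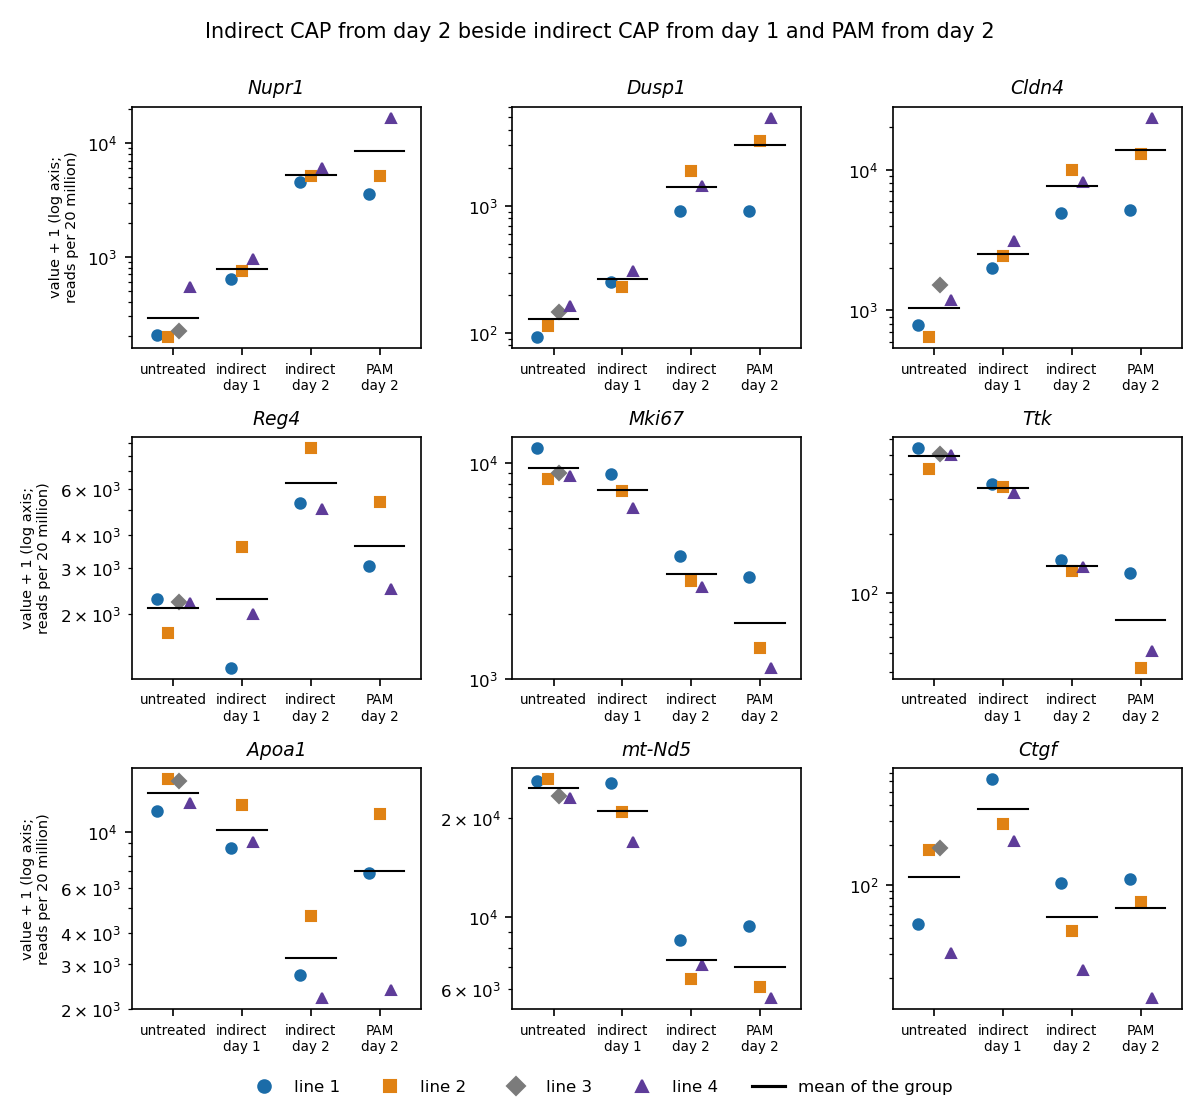
Deposited value plus 1 (reads per 20 M, log axis) of 9 genes in untreated organoids, indirect CAP from day 1, indirect CAP from day 2 and plasma-activated medium (PAM) from day 2, with 1 symbol per organoid line and a bar at the group mean. Nupr1 is 630, 747 and 944 in lines 1, 2 and 4 from day 1 and 4548, 5091 and 6027 from day 2, and Mki67, Ttk, Apoa1, mt-Nd5 and Ctgf are lower from day 2 than from day 1 in each line.

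Plasma-activated medium (PAM) is medium treated with the same plasma in the absence of organoids. Given from day 2 in the same lines, it was compared with indirect CAP from day 2 to ask whether the presence of organoids in the treated culture made a difference. With limma, 0 of 17755 genes tested (0%) passed, 1683 (9.48%) had an unadjusted p under 0.05, and the smallest adjusted p was 0.523. No gene passed with the line as a block either, or in any other alternative. The median log2 difference over all genes was 0.11, and differences are to be read against it. Olfm4 had 1255, 956 and 899 with indirect CAP and 866, 190 and 432 with PAM (log2 difference 1.31, SE 0.50). Lgr5 had 131, 188 and 36 against 96, 28 and 8 (log2 difference 1.73, SE 0.95). Mki67 had 3705, 2848 and 2662 against 2959, 1382 and 1121 (log2 difference 0.87, SE 0.35). Nupr1 had 4548, 5091 and 6027 against 3562, 5165 and 16803 (log2 difference -0.38, SE 0.53), Areg 4639, 9171 and 11214 against 5933, 10843 and 10168 (log2 difference -0.15, SE 0.37). Trib3 had 2041, 3003 and 2265 against 2205, 2657 and 1062 (log2 difference 0.39, SE 0.34). All 20 stem cell markers tested had a positive difference (median 0.74), and in 12 the indirect libraries lay above all PAM libraries, as did 2420 of all genes (13.6%), with 404 (2.28%) below. Several other lists lay on the same side, with a positive difference in 40 of 40 mitosis genes (median 0.76), 44 of 45 replication genes (0.71), 15 of 15 Wnt targets (0.78), 19 of 20 goblet cell genes (0.95) and 12 of 13 Paneth cell genes (1.13). The number of all genes with a positive difference was not counted. The indirect libraries lay above all PAM libraries in 13, 26, 6, 4 and 1 genes of these lists, in that order, where 13.6% of all genes did. Summed Paneth cell values were 26710, 34693 and 20828 with indirect CAP and 24714, 30420 and 7964 with PAM, so line 4 differed most. Lists on the other side included enterocyte (4 of 30 positive, median -0.34), fetal-like regeneration (7 of 28, -0.24) and claudin and junction genes (4 of 17, -0.16). Glycolysis and hypoxia genes (8 of 27, -0.13) and keratin, desmosome, laminin and integrin genes (12 of 36, -0.13) did so too. Quantile normalization took the median over all genes from 0.11 to -0.008. An exact permutation test of 3 against 3 libraries cannot go under a two-sided p of 0.1. PAM libraries spread widely for Lgr5 and Nupr1, and the lack of calls does not show that both media act alike.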

How the data were processed

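RNA-seq (mirVana RNA, paired-end reads) was made from 22 libraries of mouse duodenal organoids, of which 13 were used here: 4 untreated and 3 each of indirect CAP from day 2 and from day 1 and of PAM from day 2. Per the submitters' notes, the authors used Trimmomatic 0.36, STAR 2.5.3a and HTSeq 0.9.1 on GRCm38. The authors deposited, for 52636 genes, a score: the reads of a gene scaled to 20 M per library and rounded up to a whole number. The study's definition names a length term, but the spacing of low values showed none, and the scaling hides each library's depth, which was estimated from that spacing. As these values are not counts, no count model was used, and a negative binomial fit as in the study could not be made on them.

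The values were fitted with limma 3.58.1 (R 4.3.3, trended variance) on log2(value + 1), for genes that reached 10 in no fewer than 3 libraries of the fit, with no covariate. Benjamini-Hochberg adjustment ran over all genes tested, and genes were called at an adjusted p under 0.01 with a log2 fold change of at least 1. Figures were drawn with matplotlib 3.10.9 (Python 3.11.15). The fit was tested on simulated data first.

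Groups were taken from the treatment labels. The members and gene lists were chosen with earlier results of these data known, so lists are described by counts and medians, beside those over all genes, with no set test. Named were the 12 largest rises and falls with no overlap and a mean of at least 100 in the higher group, up to 5 members of each list with the smallest p, and further members needed to describe a list, some of which were picked after their values were seen. The largest rises and falls left out deposited symbols that start with Gm and a digit or end in Rik. Some genes chosen by these rules are not reported here. Gene positions came from GENCODE vM21, which matched 52489 gene identifiers (99.7%), and promoters from RefSeq.

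Libraries of 1 line come from 1 mouse by their labels, so the line was also fitted as a block. Same-line correlations of deviations from the group mean were 0.0127, 0.14 and 0.622 for lines 1, 2 and 4 against untreated, 0.514, 0.631 and 0.706 against indirect CAP from day 1, and 0.494, 0.732 and 0.63 against PAM. Alternatives were quantile and median-of-ratios scaling, a pseudocount of 10, no filter, a filter of 50, all 7 groups in 1 fit, the block, each library left out, and a threshold of adjusted p under 0.05 alone. Leaving out untreated lines 1 and 2 together was chosen after seeing the data. No column of another series was present (0).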

Additional observations from a re-analysis of the deposited data

Results flagged for a closer look

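Among the 211 named genes, 16 had 1 untreated library whose gap to its nearest neighbour passed Dixon's 95% critical value for 4 samples, where chance gives about 1 in 20. Groups of 3 were not checked. Untreated line 1 stood apart with Pcdh8 at 530 (the others 249 to 273), Axin2 at 5951 (4158 to 4349), Cd24a at 6321 (4868 to 5019) and Rpl22 at 3597 (3863 to 3911). Untreated line 2 stood apart with Nusap1 at 665 (808 to 827), Unc5b at 394 (522 to 543), Ccl28 at 844 (1109 to 1156), Reg4 at 1688 (2208 to 2292), Galnt12 at 604 (660 to 671), Sytl2 at 558 (737 to 750) and Avil at 10 (37 to 42). Untreated line 3 did so with Prim1 at 776 (711 to 721), Col17a1 at 39 (13 to 15) and Lif at 194 (122 to 130), and untreated line 4 with Nupr1 at 539 (194 to 219) and Rasal1 at 51 (11 to 14). No treated library reached the untreated range for any of these genes.

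Indirect CAP differed between the starting days for Nupr1, by 2.76 on the log2 scale, and for AC138214.1, by 3.87, in the direct test of day 2 against day 1 (limma, adjusted p = 0.00669 for both). All 3 lines were higher from day 2 for both genes.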

How the results depend on the processing

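Against untreated, the 2127 genes past the threshold (1108 higher, 1019 lower) became 1357 to 2185 when single libraries were left out, with 529 to 1272 higher and 828 to 1031 lower. The lowest count of higher genes (529) came without treated line 4, with 660 and 733 without treated lines 1 and 2. A filter of 50 left 665 higher genes, since fewer genes were tested. Leaving out untreated lines 1 and 2 together, an alternative chosen after seeing the data, gave 1057 genes (418 higher, 639 lower), with fewer samples. A threshold of adjusted p under 0.05 alone gave 7819 (3623 higher, 4196 lower). Quantile normalization turned the balance to 1013 higher against 1115 lower. The line as a block gave 1895 genes, and beyond the changes given beside the results it moved no list named there by over 1.5 times except goblet cell genes (2 lower), PPAR genes (2 lower), chaperones of the endoplasmic reticulum (1 higher) and Reg and antimicrobial genes (3 higher). This pairing leans on line labels that are in doubt for 2 untreated libraries, and the numbers were not crossed.

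Against indirect CAP from day 1, the 2 genes became 1 with quantile normalization, 1 with median-of-ratios scaling, 61 with all 7 groups in 1 fit, 623 with the line as a block, 607 at an adjusted p under 0.05 alone, and 0 without any 1 library. Against PAM the count was 0 in each alternative. Of the values for single genes, 4823 kept their side of the threshold, 327 lost it and 87 gained it, and no called value changed direction. With 3 libraries per treated group, the spread between organoid lines limits what can be seen, and values under about 10 rest on few reads.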
